A study of Mus musculus with 6 samples.

Results

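The expression of mucin genes was examined in isolated mouse taste cells from the CV (circumvallate) and Fol (foliate) papillae, which carry the taste buds of the posterior and lateral tongue. The 9 genes were taken from the table by name, with no threshold on their values. They were Muc1, Muc2, Muc4, Muc5b, Muc5ac, Muc13, Muc15, Muc19 and Muc20, and all 9 were found among the 23361 genes of the authors' table. The cells came from C57BL/6 mice without a transgene or treatment, and 2 ages were compared. Enzymes were injected under the lingual epithelium, which was then peeled off and kept in a calcium-free solution. The taste cells were drawn up from it by pipette. Each of 3 libraries at 2 months of age held the pooled cells of 4 mice, and each of 3 libraries at 6 months those of 3 mice. The design text of the series gives 3 and 6 months in one place, whereas the sample labels give 2 and 6 months. The authors' table holds 1 FPKM value per gene and age, the number of fragments scaled by transcript length and by mapped reads. The table gives no value per pool, so no SD was computed here. The p-values of the authors' own comparison were left aside, and no difference below was tested. The sequencing depth behind the values is unknown. In such bulk samples, fewer cells of a type and less RNA per cell cannot be told apart. Genes of the taste cells named by the label were present, since 12 of 13 taste cell markers averaged 1 FPKM or more over both ages and the 3 of highest mean were Krt8, Gnat3 and Entpd2. Krt8, a keratin of taste bud cells and of glands, was at 234 and 197 FPKM, Gnat3, the G protein of bitter, sweet and umami cells, at 84.7 and 79.9 FPKM, and Entpd2, an ATP-degrading enzyme of glia-like taste cells, at 66.1 and 57.7 FPKM. Pairs of values are given with 2 months first and 6 months second, and genes that average 1 FPKM or more are called expressed. Cells of other kinds were present too. Krt5, a keratin of the basal epithelium, was at 2180 and 1962 FPKM, and was named after its values had been seen.

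Mucins are large glycoproteins whose serine and threonine residues carry dense O-linked sugar chains, which bind water. Gel-forming mucins are secreted, join into long polymers and give saliva and mucus their viscosity. Membrane mucins stay anchored in the cell surface, where they form a coat and can take part in signaling. In the tongue, small salivary glands open into the clefts of the CV and Fol papillae and bathe the taste pores.

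The sequences below show a property shared by the family. In GENCODE models of GRCm38, serine, threonine and proline codons made up 44.8% of the coding sequence of Muc4, 44.1% of Muc1, 43.5% of Muc20 and 38.0% of Muc13. The share was 34.1% in Muc15, 33.8% in Muc5b and 31.2% in Muc5ac. All 7 lay far above the median of 18.7% over 20864 coding genes, and Muc4 and Muc1 ranked 9 and 10 among them. No complete coding model was used for Muc2 and Muc19. Repeats that carry these codons are shown, with the codons for serine and threonine in capitals. They come from the 3 of these 7 mucins in which a tandem repeat of at least 90% identity was found. The search covered a limited range of unit lengths, so a longer repeat in another mucin, such as Muc5b, would have been missed. The Muc13 unit, coding bases 118 to 198, is 81 bases long and is followed by an identical copy, and 15 of its 27 codons are serine or threonine. The Muc5ac unit, coding bases 6085 to 6180, is 96 bases long with 18 of 32 such codons. The Muc4 unit is 372 bases long with 63 of 124 such codons, and its first 150 bases, from coding base 1705, are shown. Identity averaged over successive copies was 99.0% for Muc5ac and 94.2% for Muc4.
Muc13: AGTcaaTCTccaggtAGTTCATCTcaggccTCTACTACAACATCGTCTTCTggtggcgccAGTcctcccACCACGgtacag
Muc5ac: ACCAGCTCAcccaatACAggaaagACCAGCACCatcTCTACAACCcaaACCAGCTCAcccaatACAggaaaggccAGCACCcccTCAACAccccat
Muc4: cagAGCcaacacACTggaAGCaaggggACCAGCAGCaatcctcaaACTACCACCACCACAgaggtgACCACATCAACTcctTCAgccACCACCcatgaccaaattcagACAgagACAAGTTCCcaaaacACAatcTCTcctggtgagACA

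These repeats bear on the measurement, because a read from 1 copy can match another. Of all 50-base words of the longest transcript, 36.7% occurred more than once within the transcript in Muc19, 23.2% in Muc5ac, 21.9% in Muc5b, 14.2% in Muc13 and 10.1% in Muc4. The share was 1.28% in Muc1 and 0 in Muc2, Muc15 and Muc20. The longest Muc2 transcript used has only 2926 bases, against 10752 for Muc5ac and 14964 for Muc5b. No complete coding model of Muc2 was used, so its 0 may not hold for the full transcript. Muc19 has a repeat of 489 bases. How the authors' programs placed such reads was not tested.

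**Figure D1:**
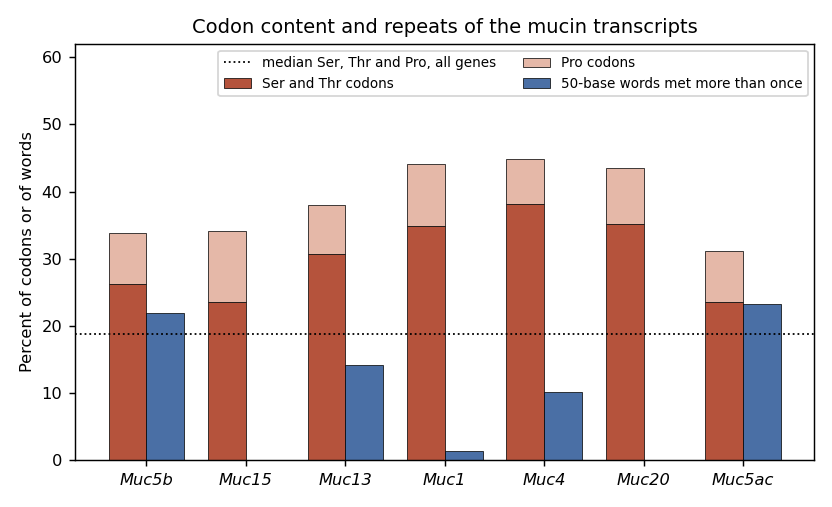
Percent of codons for serine, threonine and proline (stacked bars) and percent of 50-base words met more than once in the transcript (blue bars) for the 7 mucins with a complete coding model, against the median of 18.7% over all genes (dotted line). All 7 codon bars stand above the line, while the repeat share runs from 0 in Muc15 and Muc20 to 23.2% in Muc5ac.

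Among the gel-forming mucins, Muc5b was the 1 expressed gene of the 4. Muc5b, a gel-forming mucin of saliva and of the airways, was at 20.1 FPKM in 2 month taste cells and at 18.2 FPKM in 6 month taste cells, the highest level of the 9 genes at either age. Muc19, a gel-forming mucin of mucous salivary gland cells, was at 1.10 and 0.863 FPKM. Muc5ac, known from the stomach surface and the airways, was at 0.228 and 0.238 FPKM. Muc2, the mucin of intestinal goblet cells, was lowest with 0.0813 and 0.120 FPKM. Thus Muc5b stood 18.2 times above Muc19 and 88.3 times above Muc5ac at 2 months, and 21.1 and 76.3 times above them at 6 months.

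Gel-forming mucins of unlike level lie side by side in the genome. Muc2, Muc5ac and Muc5b lie in the same orientation on chromosome 7 of GRCm38, Muc2 from 141690340 to 141754693, Muc5ac from 141788972 to 141819231 and Muc5b from 141839070 to 141873084. Only 19838 bases separate Muc5ac from Muc5b, and 34278 bases separate Muc2 from Muc5ac. Muc6, the gel-forming mucin of stomach glands and the gene beyond Muc2, was at 0.0246 and 0.0887 FPKM. Levels thus ran from under 0.1 to 20.1 FPKM along this cluster at 2 months.

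All 5 membrane mucins were expressed. Muc15, a short membrane mucin of 331 codons, was at 14.8 and 16.4 FPKM, second to Muc5b at both ages. Muc13, a membrane mucin known from the surface of the gut and the trachea, was at 6.58 and 3.28 FPKM. Muc1, which lines the free surface of many glands and ducts, was at 5.88 and 5.03 FPKM. Muc4, a very large membrane mucin that can bind the receptor ErbB2, was at 2.65 and 2.76 FPKM. Muc20, which can bind the receptor Met, was at 1.97 and 1.79 FPKM. The order of the 9 levels was the same at both ages except for Muc13 and Muc1, which changed places, and since no spread is known, neighbors in this order cannot be said to differ.

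**Figure D2:**
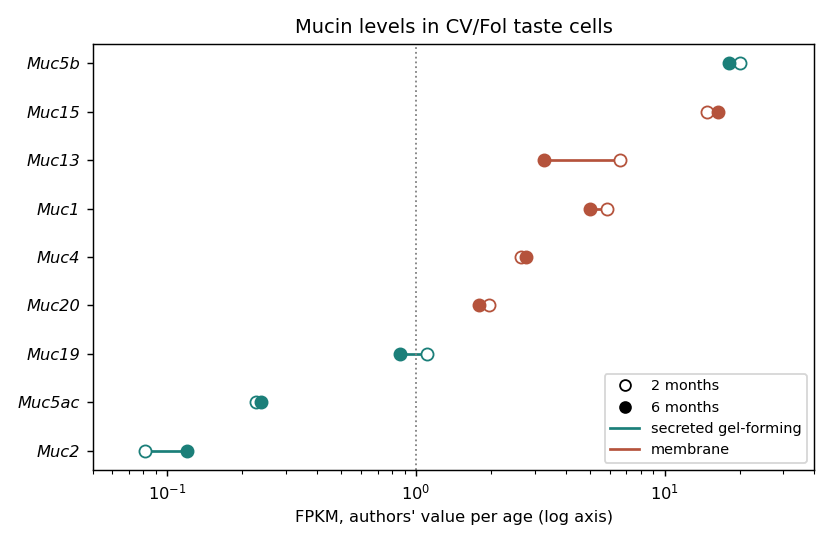
FPKM of each mucin on a log axis, with open points for 2 months and filled points for 6 months, each the authors' single value for that age, and a dotted line at 1 FPKM. The pairs of points lie close together for most genes, while Muc13 moves from 6.58 to 3.28 FPKM, and at very low levels Muc2 from 0.0813 to 0.120 FPKM.

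The median of all genes in the table was 1.74 FPKM at 2 months, and 6 of the 9 mucins lay above it. Of all these genes, 81.3% had a lower value than Muc5b at 2 months, 76.6% than Muc15, 63.8% than Muc13, 62.3% than Muc1 and 51.1% than Muc20. Among the 12652 expressed genes alone the median was 11.8 FPKM, and of the 9 mucins Muc5b and Muc15 lay above it. The 9 values summed to 53.4 FPKM in the younger and 48.7 FPKM in the older cells. Muc5b held 37.6% of the sum at 2 months and 37.4% at 6 months, and Muc15 held 27.7% and 33.7%. The share of Muc13 was 12.3% and 6.73%.

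FPKM is given per transcript length, and mucin transcripts differ widely in length. The longest GENCODE transcript measures 14964 bases for Muc5b, 11277 for Muc4 and 10752 for Muc5ac, against 3673 for Muc20, 3421 for Muc15, 2969 for Muc13 and 2242 for Muc1. Multiplied by these lengths in kilobases, a measure of the fragments behind a value, the 2 month levels gave 301 FPKM times kilobases for Muc5b, 50.6 for Muc15, 29.9 for Muc4, 19.5 for Muc13, 13.2 for Muc1 and 7.23 for Muc20. Muc5b then made up 71.0% of the 7 genes and Muc13 4.61%. The value of Muc13 thus rests on far fewer fragments than that of Muc5b, and that of Muc20 on fewer still. The authors' transcript models may differ from those used here.

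**Figure D3:**
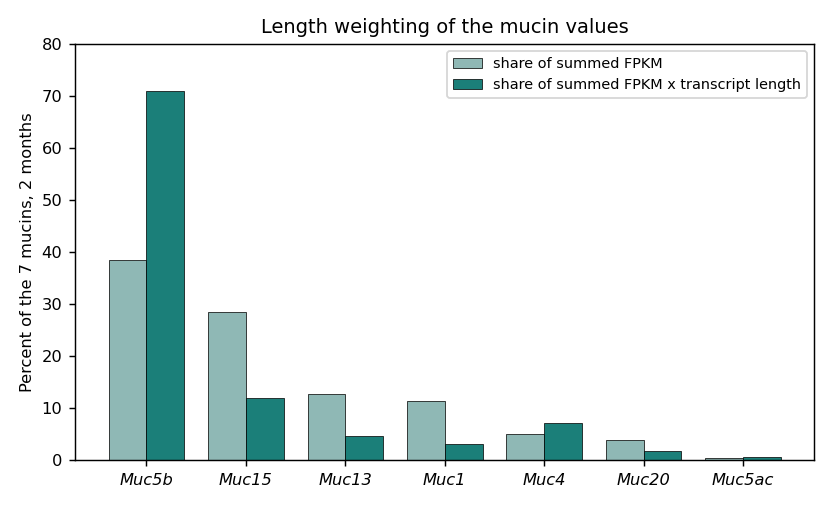
Share of each of 7 mucins in their summed FPKM (light bars) and in their summed FPKM times transcript length (dark bars) at 2 months, in percent. Muc5b goes from 38.5% to 71.0%, while Muc15 goes from 28.4% to 12.0%.

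The ages were compared in the study to find genes that may have a part in the renewal of taste cells. Differences were computed here as log2(FPKM + 1) at 6 months minus that at 2 months, which understates the difference of low genes. Muc13 had the largest difference of the mucins, -0.83, with 2.01 times as much FPKM at 2 months as at 6 months. The other expressed mucins were Muc1 with -0.19, Muc5b with -0.14, Muc20 with -0.09, Muc4 with 0.04 and Muc15 with 0.14. Of these 6 genes, 0 reached a difference of 2-fold on this scale, where 1.6% of the 12652 expressed genes did, 1.04% with a lower and 0.561% with a higher value at 6 months. Without the 79 genes listed at 0 in 1 age, which may be failed estimates, the shares were 0.978% in either direction and 0.66% with a lower value. At 1.5-fold, Muc13 was the 1 gene of the 6 past the limit, where 2.77% of all expressed genes were, and 1.72% with a lower value.

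Muc13 stood close to the 2-fold limit. With a pseudocount of 0.1 its difference was -0.98, and the ratio of the FPKM values as deposited was just past 2-fold, at -1.01 on the log2 scale. Scaling both ages to the same upper quartile gave -0.79. Among the 12652 expressed genes, 148 (1.17%) had a difference as low as that of Muc13, and among the 3341 genes averaging 1 to 5 FPKM, where Muc13 lies, 25 (0.748%) did. The 148 include genes listed at 0 at 6 months. Without genes listed at 0 in 1 age, those past 2-fold with a lower value fell from 131 to 83. In that range 1.05% of genes were past 2-fold and 2.63% past 1.5-fold in either direction, and the 5th and 95th percentiles of the difference were -0.31 and 0.29. The quartiles there were -0.10 and 0.11, and Muc20 and Muc4 lay between them. Muc1, Muc5b and Muc15 average 5 to 25 FPKM, where the quartiles were -0.08 and 0.08 and the 5th and 95th percentiles -0.26 and 0.23. All 3 lay outside these quartiles and between these percentiles.

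The ratio of 2 mucins within an age does not depend on how the libraries were scaled. Muc13 was 1.12 times Muc1 at 2 months and 0.652 times Muc1 at 6 months. Against Muc15 the ratio was 0.444 and 0.200, against Muc4 2.48 and 1.19, and against Muc5b 0.327 and 0.180. Muc13 was thus lower at 6 months relative to each of these 4 genes. This follows from its own ratio of 6 to 2 months, 0.498, the lowest of the 9 mucins. It is therefore no separate evidence for the difference of Muc13. Ratios without Muc13 also differed between the ages, with 1.36 and 1.11 for Muc5b over Muc15 and 1.35 and 1.54 for Muc4 over Muc20, while Muc5b was 10.2 times Muc20 at both.

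As a group the mucins differed little. The median difference of the 6 genes was -0.11, against -0.01 over all 12652 expressed genes, and 4 of the 6 had a lower value at 6 months, where 53.7% of expressed genes did. With both ages scaled to the same upper quartile, 4 of the 6 were still lower, where 42.3% of all genes were, and the median of all genes moved to 0.03. Summed FPKM was lower at 6 months by a log2 ratio of -0.15 for the 4 gel-forming mucins and -0.12 for the 5 membrane mucins. Neither sum stands for its class as a whole. Muc5b made up 20.1 of the 21.5 FPKM of the gel-forming sum at 2 months. Of the 5 membrane mucins, 3 were lower, Muc13 by the most, and 2, Muc15 and Muc4, were higher. Without Muc13, the sum of the other 8 genes was 46.8 and 45.4 FPKM. The 3 genes that average under 1 FPKM had differences of -0.18 for Muc19, 0.01 for Muc5ac and 0.05 for Muc2.

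**Figure D4:**
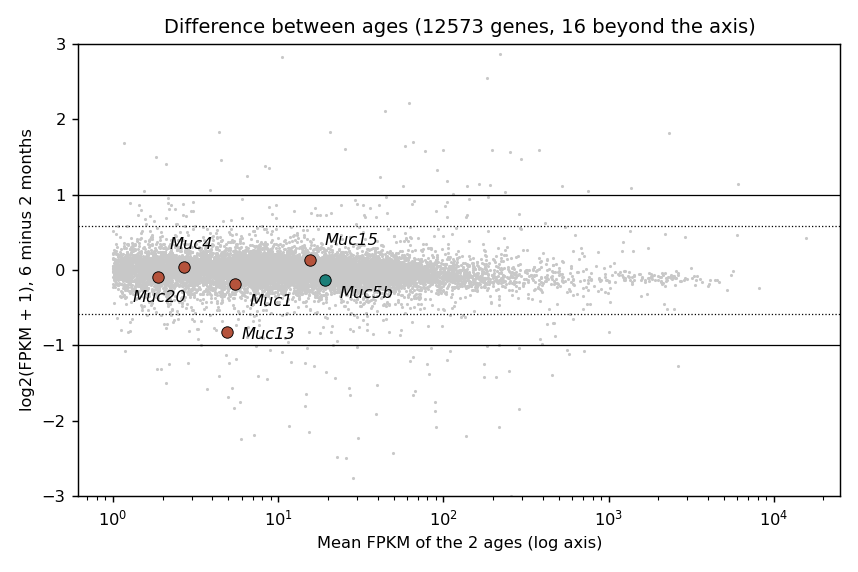
Difference between the ages against mean FPKM (log axis) for 12573 genes in grey and for 6 mucins in color, with solid lines at 2-fold and dotted lines at 1.5-fold. 16 genes lie beyond the axis, and genes listed at 0 in 1 age are left out. Muc13, at -0.83, lies between the 1.5-fold and 2-fold lines, and the other 5 mucins lie within the dotted lines.

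Several mucin genes share bases with other genes, and the libraries are not stated to keep the strand of the RNA. Muc4 lies on the plus strand of chromosome 16 from 32735886 to 32782391 and Muc20 on the minus strand from 32777419 to 32797435, so that their ends overlap by 4973 bases. Exons of both cover 627 of these bases, which is 15.6% of the exonic bases of Muc20 and 5.33% of those of Muc4. Reads from that stretch cannot be told apart, and the separate values of Muc4 and Muc20 are uncertain to that extent. Muc13, on the plus strand of the same chromosome from 33794037 to 33819934, shares 184 exonic bases (6.06%) with the antisense gene Gm15657, whose reads cannot be told apart from those of Muc13 there. Muc15, on chromosome 2 from 110721340 to 110739527, lies within Ano3 on the opposite strand and shares 61 exonic bases with it, while Ano3 was at 0.197 and 0.222 FPKM. Muc19, on chromosome 15 from 91838326 to 91934555, shares 95 exonic bases with Smgc, which was at 0.188 and 0.155 FPKM. Muc1 lies on chromosome 3 from 89229057 to 89233381 with no overlapping gene in that annotation.

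Since AP1 factors, dimers of Fos and Jun proteins, are the subject of the study, the 250 bases before the start sites were searched for the AP1 recognition sequence TGACTCA on either strand. RefSeq windows of GRCm38.p6 were given for 5 of the 9 mucins, Muc1, Muc2, Muc4, Muc13 and Muc20, and 2 start sites were listed for Muc13. Both Muc13 windows held the motif, and those of Muc1, Muc2, Muc4 and Muc20 held no exact match. Over all 32851 windows, 4.46% held it. In the first Muc13 window, chr16:33793787-33794036 on the plus strand, the motif begins 61 bases before the start site. In the second, chr16:33794239-33794488, it begins 179 bases before the start site, as TGAGTCA, and 122 bases of that window belong to an exon of the gene. The first window is shown with the motif in capitals because Muc13 had the largest difference between the ages, with the motif of the second and 10 bases on either side, and the window of Muc1, chr3:89228806-89229055 on the plus strand, stands for a mucin of like level without the motif.
Muc13, first start site: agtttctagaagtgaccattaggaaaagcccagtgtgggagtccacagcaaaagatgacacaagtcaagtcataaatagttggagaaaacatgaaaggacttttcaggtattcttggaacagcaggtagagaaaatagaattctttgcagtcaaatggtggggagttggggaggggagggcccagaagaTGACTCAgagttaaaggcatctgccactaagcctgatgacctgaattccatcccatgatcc
Muc13, second start site: tcctggacttTGAGTCAaggatatcaa
Muc1: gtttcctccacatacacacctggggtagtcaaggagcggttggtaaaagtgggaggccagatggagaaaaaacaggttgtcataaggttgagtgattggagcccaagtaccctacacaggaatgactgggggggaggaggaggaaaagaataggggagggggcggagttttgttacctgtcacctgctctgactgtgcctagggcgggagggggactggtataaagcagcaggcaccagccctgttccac

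Other motifs divided the windows differently. The sequence TATAAA was found in those of Muc1, Muc2 and Muc4, 31, 174 and 36 bases before the start site, and in 12.4% of all windows. CCAAT and GGGCGG were found in the windows of Muc1 and Muc2, and in 33.8% and 32.7% of all windows. All were searched on both strands, no match overlapped another, and the Muc20 window held 0 of the 4 motifs. A match is a stretch of letters only, and binding to these windows was not measured.

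Enzymes that attach the first sugar of mucin chains were broadly expressed. Of 19 genes for such GalNAc transferases in the table, 11 were expressed. At 6 months 9 of the 11 had a lower value, where 53.7% of all expressed genes did. Past 2-fold were 0 of the 11, where 1.6% of all expressed genes were. Their median difference was -0.11. Galnt2 was at 29.4 and 30.2 FPKM, Galnt1 at 20.6 and 18.2 FPKM and Galnt18 at 12.9 and 11.3 FPKM. Galntl5 and Wbscr17, also of this family, were listed at 0 at both ages.

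Of 17 genes for enzymes that extend and cap the chains, 11 were expressed. At 6 months 6 of the 11 had a lower value, where 53.7% of all expressed genes did, and 5 a higher one. Of the 11, 0 were past 2-fold, where 1.6% of all expressed genes were, and the median difference was -0.05. Fut2, which adds the terminal fucose of secretor blood group antigens, was at 32.8 and 31.6 FPKM. C1galt1 makes the core 1 structure and was at 21.0 and 22.5 FPKM, and its chaperone C1galt1c1 was at 14.5 and 13.4 FPKM. St6galnac2, a sialyltransferase, was at 23.7 and 19.6 FPKM.

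Of 17 genes of the secretory machinery of mucous cells, 9 were expressed, and 8 of the 9 had a lower value at 6 months, where 53.7% of all expressed genes did. Their median difference was -0.22, against -0.01 over all expressed genes. Past 2-fold were 0 of the 9, where 1.6% of all expressed genes were. Agr2 was the 1 gene past 1.5-fold with a lower value, where 1.72% of all expressed genes were. Agr2, a disulfide isomerase needed for the folding of gel-forming mucins, was at 55.3 and 35.0 FPKM, a difference of -0.64. Tff2, a trefoil peptide secreted with mucins, was at 52.0 and 38.7 FPKM. Xbp1, a transcription factor of secretory cells, was at 190.8 and 163.4 FPKM. Fcgbp, a mucus protein with domains like those of the gel-forming mucins, was at 18.0 and 18.9 FPKM, the 1 gene of the 9 with a higher value. Tff3 and Zg16, both secreted by intestinal goblet cells, were listed at 0 at both ages.

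Most expressed markers of the lingual and salivary glands had a lower value at 6 months. Of 16 such genes in the table, 9 were expressed. At 6 months 8 of the 9 had a lower value, where 53.7% of all expressed genes did, and their median difference was -0.56. The sum of the 9 was 494 and 199 FPKM. Past 2-fold were 3 genes, all lower, where 0.66% of the expressed genes not listed at 0 were lower by as much. Lipf, the lingual lipase of the serous glands, was at 83.7 and 14.7 FPKM. Dmbt1, a salivary glycoprotein that binds bacteria, was at 302 and 113 FPKM, and Bpifb1, a secreted protein of mucosal glands, at 28.6 and 10.6 FPKM. Prol1 and Car6, markers of salivary acini, were listed at 0. Dcpp2 was the 1 gene with a higher value, at 1.45 and 3.28 FPKM, and was named here after its values had been seen. It is one of similar copies between which reads can be split.

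The 9 gland markers ranged widely in their differences, from -2.43 for Lipf to 0.80 for Dcpp2. The smallest of the lower ones were -0.23 for Lyz1, a lysozyme, and -0.31 for Dcpp1, both named after their values had been seen. The difference of Muc5b was -0.14 and that of Muc13 was -0.83. Muc19, which averages under 1 FPKM, had a difference of -0.18, or -0.32 with a pseudocount of 0.1. The part of gland cells in the value of any mucin was not tested.

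Markers of stratified epithelium were lower in 5 of the 6 genes compared, where 53.7% of all expressed genes were, with a median difference of -0.58. Krt10, a keratin of cornifying layers, was past 2-fold at 149.7 and 70.5 FPKM. Of the expressed genes not listed at 0, 0.66% were lower by as much. The sum of the 6 genes was 4982 and 4347 FPKM. Krt4, a further keratin of this list, was at 7334 FPKM in 2 month cells and is listed at 0 in 6 month cells, and Krt13 is listed at 0 at both ages, although both are major keratins of the tongue surface, so a 0 in the table need not mean a lack of RNA. None of the 9 mucins is listed at 0. Of the 12 expressed taste cell markers, 4 had a lower and 8 a higher value at 6 months. Krt8, Gnat3 and Entpd2, given above for their high level, are among the 4. The median difference of the 12 was 0.15, in a range from -0.25 to 0.47. Past 2-fold were 0 of them, where 1.6% of all expressed genes were. Their sums were 544 and 510 FPKM, of which Krt8 alone made up 234 and 197 FPKM. The part of these cells in the mucin values was not tested either.

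**Figure D5:**
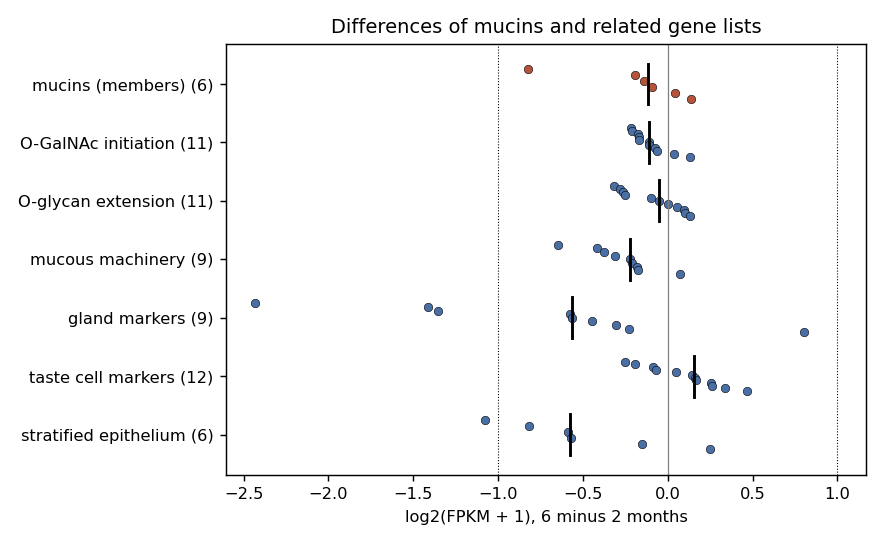
Difference between the ages, as log2(FPKM + 1) at 6 minus 2 months, for each expressed gene with no value of 0, by list, with the number of genes in brackets, a black bar at the median and dotted lines at 2-fold. The mucins have a median of -0.11 with Muc13 apart at -0.83, and the gland markers have a median of -0.56 and reach -2.43.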

How the data were processed

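Cells of 3 pools per age were sequenced after poly A selection. Per the labels and the study's methods, the authors mapped reads to GRCm38/mm10 with TopHat2 2.0.7, quantified RefSeq genes with Cufflinks 2.1.1 and compared ages with Cuffdiff. The authors deposited 1 FPKM value per gene and age. The value columns were matched to an age by the letter they share with the sample titles. The authors also deposited an unadjusted p-value per gene from their own comparison, and these p-values were not used. Without values per library no test was run here, as laid down in the design for this case, and depth is unknown.

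Differences were taken on the log2(FPKM + 1) scale over genes averaging 1 FPKM or more (expressed genes), and a gene was counted as past the limit at 2-fold. This step was run on simulated data, with planted changes well past the limit, little added noise and no planted change in low genes. That run checks the counting only and does not bear on a gene close to the limit, such as Muc13. The 79 genes of these listed at 0 in 1 age were kept, except in the lists and the plots. Transcript lengths, codons, overlaps and 50-base words came from GENCODE M21 (GRCm38), and promoter windows from RefSeq (GRCm38.p6), where entries for Muc5b, Muc5ac, Muc15 and Muc19 were missing.

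All 9 mucins were named, and from every other list the genes past 2-fold and otherwise the 2 to 4 of highest mean. Other genes are named with a remark or because they are listed at 0. The members and lists were chosen with earlier results of these data known. Alternatives were a limit of 1.5-fold, 0.1 as pseudocount, a common upper quartile for both ages, no filter on low genes and a filter at 5 FPKM. Python 3.11.15 with numpy 2.4.6, pandas 2.3.3 and matplotlib 3.10.9 was used.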

Additional observations from a re-analysis of the deposited data

How the results depend on the processing

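No paired analysis was possible because single pools have no values of their own here, and for the same reason no replicate was left out. The number of mucins past 2-fold was 0 with a pseudocount of 0.1, with the same upper quartile, without a filter and with a filter at 5 FPKM. It was 1, Muc13, at a limit of 1.5-fold and, in a setting added after seeing the data, with the ratio of FPKM values without a pseudocount. Muc13 itself does not pass the filter at 5 FPKM. Leaving out the genes listed at 0 in 1 age, also added after seeing the data, changed the count of all genes past 2-fold from 202 to 123 and the share from 1.6% to 0.978%. The median difference of the mucins was between -0.14 and -0.08 under every alternative run. The share of the highest gene in the summed mucin FPKM is that of Muc15 once Muc5b is left out, at 44.5% at 2 months and 53.8% at 6 months. With a pseudocount of 0.1 the differences of Muc19 and Muc2 were -0.32 and 0.28. These values are low, and without depth no error can be given for them.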

Other observations

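Receptors and enzymes that can act on membrane mucins were all expressed. Of the 8 genes of this list, 0 were past 2-fold, where 1.6% of all expressed genes were. Their differences ran from -0.07 to 0.15. Lgals3, a galectin that binds the sugar chains of mucins, was at 403 and 443 FPKM, with the value at 2 months first here and below. Ctnnb1, the adhesion and Wnt pathway protein that can bind the Muc1 tail, was at 351 and 349.6 FPKM. Erbb2, the receptor bound by Muc4, was at 48.3 and 53.8 FPKM, and Erbb3 was at 45.9 and 48.6 FPKM. Scaled to a common upper quartile, 1 of the 8 had a lower value at 6 months in place of 4. Over all expressed genes the share was then 42.3% in place of 53.7%.

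Of 13 other mucin-type genes, 5 were in the table. Cd164, a small membrane sialomucin also called endolyn, was at 104.9 and 89.3 FPKM, above each of the 9 mucins. Ovgp1, the oviduct glycoprotein, was at 0.779 and 0.804 FPKM, and Mucl1 was listed at 0 at both ages.

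Of 6 markers of airway secretory cells, in which Muc5b is also known, 3 were expressed, and these had unequal differences. The others averaged under 1 FPKM, Bpifa1 at 0.935 and 0.0560 FPKM, Reg3g at 0.904 and 0.281 FPKM and Scgb3a2 at 0.297 and 0.662 FPKM. They were named after their values had been seen. Scgb1a1, the club cell secretory protein, was at 1.87 and 19.4 FPKM, the 1 expressed gene of this list past 2-fold. Of all expressed genes, 0.561% were past 2-fold with a higher value. Cyp2f2, a cytochrome of such cells, was at 1251 and 1245 FPKM, and Scgb3a1 was at 9.82 and 6.81 FPKM. Of the 7 expressed markers of leukocytes, fibroblasts and muscle, 3 had a lower and 4 a higher value at 6 months. Over all expressed genes, 53.7% had a lower value. All 3 muscle markers were past 1.5-fold with a higher value, where 2.77% of all expressed genes were past it in either direction. Tnnc2, a troponin of fast skeletal muscle, was also past 2-fold at 2.14 and 5.57 FPKM, while Mb, the oxygen-binding myoglobin, was at 1.82 and 4.28 FPKM and Acta1, the actin of skeletal muscle, at 1.98 and 4.15 FPKM. Dcn, a proteoglycan of fibroblasts, was at 42.0 and 27.3 FPKM, Cd68, a macrophage protein, at 10.05 and 7.15 FPKM and Lyz2, a lysozyme of myeloid cells, at 293 and 254 FPKM. Ptprc, a further leukocyte marker, had a higher value at 6 months, at 1.54 and 1.65 FPKM. The other fibroblast markers averaged under 1 FPKM, Col1a1 at 0.134 and 0.0599 FPKM and Col1a2 at 0.121 and 0.0658 FPKM. The genes of this list other than Tnnc2 were named after their values had been seen.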
